A study of Mus musculus with 31 samples.

Results

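The comparison described here is the loss of MuRF1 in female mice fed a high-fat diet, read from the gastrocnemius muscle, a fast muscle of the calf. It rests on 7 of 31 RNA sequencing libraries, with 3 from MuRF1 -/- females (animals 2455, 2459 and 2547, knockout 1 to 3) and 4 from wild type females (animals 2446, 2448, 2462 and 2513, wild type 1 to 4). Every animal ate chow from weaning, was moved at 8 weeks of age to a diet with 45% fat from lard, and gave its muscle at 30 weeks. Each library was assigned by the animal number found with its count table, through whichever title names that animal, since 19 titles carry a different number from their own table. How the MuRF1 allele was made, the strain, and whether the 2 genotypes were littermates are not stated by the labels. The series sets MuRF1 loss beside sex and diet. Female chow groups (4 knockout and 4 wild type) and male high-fat groups (3 knockout and 4 wild type) therefore stand beside this comparison further on. Male chow groups (4 knockout and 4 wild type) do so as well.

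MuRF1, encoded by Trim63, is a RING-type ubiquitin ligase of striated muscle that sits at the M-band of the sarcomere through its binding to titin. It marks thick-filament and other muscle proteins for the proteasome, and its transcript is a standard marker of atrophy because glucocorticoids, FoxO factors, unloading and denervation raise it. Mice that lack it are known for keeping muscle mass under several of these conditions. A diet rich in fat leads to obesity and insulin resistance in mice, and muscle answers with shifts in fuel handling.

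Libraries of the 7 animals held 10436238 to 14713468 counts, of which mitochondrially encoded genes took 5.40% to 11.9%, and 3 counts correspond to 0.204 to 0.287 CPM, counts scaled to a common library total. Values below are CPM after TMM scaling, which also adjusts for library composition. The 7 libraries are from different animals by their numbers, and the lowest chi-square per gene between 2 libraries of a group was 4.67, with 0 of 9 pairs identical. Wild type 4 stood apart from the other wild types of this comparison. A chow wild type with a similar Trim63 level is described with the diet difference. The own title of wild type 4 reads female MuRF1 -/- high fat, against the animal number of its table, which a wild type title carries. The Trim63 level of wild type 4 was the lowest of the wild type libraries of this comparison. It also had the lowest summed levels of macrophage, tendon, fibroblast and collagen genes of the 7 libraries and the highest level of the clock gene Dbp. Levels of some chromosome 4 genes, picked after their values were seen, lay among those of the knockouts. Its Trim63 count of 1244 nonetheless lay far above the 8 to 15 counts of the knockouts. Every fold change with all 7 libraries counts this animal as wild type. Other chromosome 4 genes given below lay above all knockouts in this library, and the picked genes test nothing. By its title its genotype remains uncertain. For that reason results that rest on it are given with and without it.

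Markers of the labelled tissue were present in all 7 libraries. The summed level of 14 tested myofibre markers was 209269 to 247577 CPM in knockouts and 185557 to 227861 CPM in wild types. Myh4, the myosin heavy chain of the fastest fibres, had 64228, 64136 and 59682 CPM in knockouts and 48141, 50926, 59274 and 54742 CPM in wild types. Some markers of other cells were at or near 0, though other members of their lists were detected. Genes with enough counts to be tested numbered 13 of 14 for adipocytes and 16 of 18 for keratinocytes and hair. For lymphocytes they numbered 3 of 16, and for neutrophils 3 of 12. Ucp1 of brown fat and Krt71 of hair had 0 counts in all 7 libraries, and Cd8a of T cells and Ly6g of neutrophils had at most 1 count in any of them.

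Trim63 (ENSMUSG00000028834, chromosome 4, 134315120 to 134329629, mm10, plus strand) was the check of the genotype. It had 1.28, 1.29 and 0.705 CPM in knockouts 1 to 3 and 181, 209, 236 and 124 CPM in wild types 1 to 4. The raw counts were 15, 14 and 8 in knockouts and 2580, 3200, 2559 and 1244 in wild types, so the groups were far apart and wild type 4 was the lowest wild type. The log2 fold change of knockout over wild type was -7.41 ± 0.57 (± standard error, edgeR quasi-likelihood test, adjusted p = 4.87e-08), and -7.57 ± 0.56 without wild type 4.

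The promoter of Trim63 is shown because the site pair upstream of its start is the textbook example of joint glucocorticoid and FoxO control. Those of Myom3 and Hspb7, a pair of sarcomere-linked genes of the same chromosome that were lower in knockouts, are set beside it. All are the 250 bases before the RefSeq gene start on the plus strand of GRCm38.p6 and run 5′ to 3′, with matches to 4 searched motifs in capitals. They lie at chr4:134314870-134315119 for Trim63, chr4:135759465-135759714 for Myom3 and chr4:141420529-141420778 for Hspb7.
Trim63: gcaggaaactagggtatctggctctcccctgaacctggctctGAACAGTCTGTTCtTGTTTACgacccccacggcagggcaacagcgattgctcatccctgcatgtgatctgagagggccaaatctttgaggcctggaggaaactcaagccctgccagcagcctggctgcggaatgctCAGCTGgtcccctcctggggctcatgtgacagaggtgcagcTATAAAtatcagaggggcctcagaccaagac
Myom3: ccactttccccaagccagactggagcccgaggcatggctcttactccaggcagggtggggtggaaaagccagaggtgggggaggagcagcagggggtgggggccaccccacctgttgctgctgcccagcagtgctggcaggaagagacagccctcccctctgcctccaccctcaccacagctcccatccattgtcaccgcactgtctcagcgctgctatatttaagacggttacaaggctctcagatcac
Hspb7: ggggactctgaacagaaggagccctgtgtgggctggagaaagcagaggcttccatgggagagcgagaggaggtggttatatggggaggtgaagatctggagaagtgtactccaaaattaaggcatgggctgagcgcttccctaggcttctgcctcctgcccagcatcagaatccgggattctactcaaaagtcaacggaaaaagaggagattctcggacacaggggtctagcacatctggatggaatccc
In the Trim63 promoter the palindromic glucocorticoid receptor element GNACANNNTGTNC matched from base -208 to -196. The FoxO core GTAAACA, searched on both strands, matched as its reverse complement TGTTTAC from -194 to -188. The palindromic E-box CAGCTG matched from -72 to -67 and the box TATAAA, searched on the gene's strand, from -31 to -26. Among 32851 promoters of the same length in the RefSeq table, 0.387% held the first motif, 3.17% the second, 13.0% the third and 7.59% the fourth. The windows of Myom3 and Hspb7 held none of the 4 in these letters.

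Across the transcriptome 10 genes fell in knockouts and 0 rose, out of 14024 tested (0.0713%, adjusted p below 0.05). With no adjustment, 1102 genes had a p below 0.05. All 10 called genes lie on chromosome 4, the chromosome of Trim63, and in each of them all 3 knockout libraries lay below all 4 wild type libraries. Over all tested genes, 784 (5.59%) had groups that did not overlap, and the median log2 fold change was 0.0036. The count moved with single libraries: it was 6 without wild type 1, 4 without wild type 3, 53 without wild type 4, and 5, 6 and 2 without knockouts 1, 2 and 3. With all libraries grouped by their own titles, which puts wild type 4 among the knockouts and chow knockout 4 among the wild types, 0 genes were called by edgeR, and 1839 had an unadjusted p below 0.05. Over 16 alternatives Trim63 kept its call in 15, Zfp46 in 14, Dcdc2b in 13, Adgrb2 in 12, Hspb7 in 11, Paqr7 in 9, Myom3 in 8, Hmgn2 in 7 and Hdac1 in 6, and Fbxo44 in 9 of 17.

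Genes with a place in the contractile apparatus come first. Myom3 (ENSMUSG00000037139, chromosome 4, 135759715 to 135815564), which encodes a myomesin that cross-links thick filaments at the M-band, had 76.0, 48.5 and 54.3 CPM in knockouts, against 158, 156, 129.7 and 92.5 CPM in wild types. Its level in knockouts was below even the low value of wild type 4, and the log2 fold change was -1.17 ± 0.23 (adjusted p = 0.0405; -1.31 ± 0.23 without wild type 4). Hspb7 (ENSMUSG00000006221, chromosome 4, 141420779 to 141425311), a small heat shock protein of heart and skeletal muscle, had 366, 279.5 and 299 CPM in knockouts and 651, 619.8, 696 and 523 CPM in wild types. The groups did not overlap and lay well apart, and the log2 fold change was -0.98 ± 0.18 (adjusted p = 0.0127). Both genes belong to the list of sarcomere structure and MuRF1-linked proteins, in which 2 of 30 genes fell, 0 rose and the median was -0.032.

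A ubiquitin ligase subunit changed besides Trim63. Fbxo44 (ENSMUSG00000029001, chromosome 4, 148152800 to 148160482) encodes an F-box protein, the part of an SCF ubiquitin ligase that binds the substrate. Its transcript had 0.426, 0.368 and 0.617 CPM in knockouts and 7.86, 5.09, 6.55 and 5.06 CPM in wild types. Knockout levels were near the floor of 3 counts, and the log2 fold change of -3.68 ± 0.69 (adjusted p = 0.0293) is correspondingly imprecise.

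A pair of receptors and a doublecortin-type gene follow. Paqr7 (ENSMUSG00000037348, chromosome 4, 134496697 to 134510235), a membrane progestin receptor, had 3.92, 3.50 and 4.67 CPM in knockouts and 11.1, 9.98, 10.5 and 6.55 CPM in wild types (log2 fold change -1.25 ± 0.23, adjusted p = 0.0142). Adgrb2 (ENSMUSG00000028782, chromosome 4, 129984870 to 130022633), an adhesion G protein-coupled receptor known from brain, had 0.511, 0.921 and 0.705 CPM in knockouts and 2.45, 4.24, 3.42 and 1.59 CPM in wild types (log2 fold change -2.05 ± 0.35, adjusted p = 0.00681). Both transcripts were of low abundance, and in both wild type 4 was the lowest wild type. Dcdc2b (ENSMUSG00000078552, chromosome 4, 129608331 to 129614257), a gene of the doublecortin domain family, had 1.28, 0.737 and 0.441 CPM in knockouts and 3.44, 3.52, 5.63 and 2.28 CPM in wild types (log2 fold change -2.16 ± 0.34, adjusted p = 0.0019).

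Nuclear proteins made up the rest. Zfp46 (ENSMUSG00000051351, chromosome 4, 136284683 to 136293942), a zinc finger protein, had 19.0, 10.9 and 17.5 CPM in knockouts and 52.6, 40.7, 29.6 and 33.2 CPM in wild types (log2 fold change -1.31 ± 0.18, adjusted p = 0.000443). Hdac1 (ENSMUSG00000028800, chromosome 4, 129516104 to 129542713), a class I histone deacetylase, had 6.05, 5.89 and 5.99 CPM in knockouts and 10.6, 10.2, 11.3 and 7.64 CPM in wild types (log2 fold change -0.73 ± 0.15, adjusted p = 0.046). The 3 knockout values of Hdac1 were nearly equal, and wild type 4 lay between them and the other wild types. Hmgn2 (ENSMUSG00000003038, chromosome 4, 133964738 to 133968650), a nucleosome-binding protein, had 8.52, 12.6 and 10.6 CPM in knockouts and 17.5, 18.5, 19.1 and 15.7 CPM in wild types (log2 fold change -0.74 ± 0.15, adjusted p = 0.046).

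**Figure D1:**
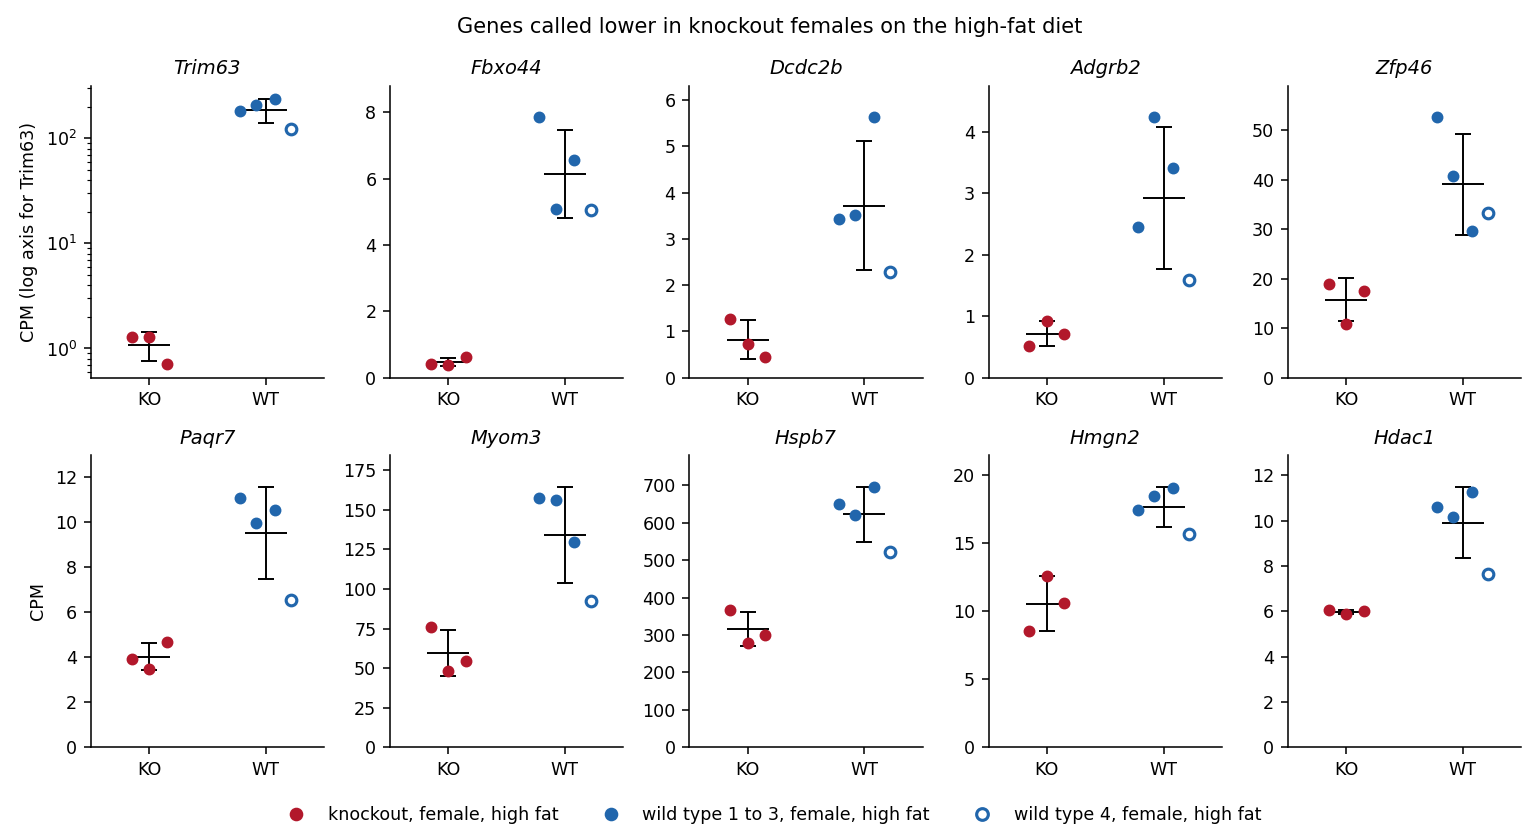
CPM (vertical axis, log scale for Trim63 and linear from 0 for the others) of the 10 called genes in 3 knockout libraries (red) and 4 wild type libraries (blue, wild type 4 open), with the group mean and SD as bars. All knockout points lie below all wild type points in each panel, and wild type 4 is the lowest wild type in every panel but that of Zfp46.

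Position along chromosome 4 was then set against the fold change, since every call lay there. Of 80 tested genes within 2 Mb of Trim63, itself left out, 4 were called (5.0%), and of 166 between 2 and 10 Mb, 4 were called (2.41%). Between 10 and 25 Mb 1 of 243 was called (0.412%), and 0 of 379 were called on the rest of the chromosome. Among 13043 genes of other chromosomes 0 were called. Groups that did not overlap were found for 15.0%, 10.2%, 10.3%, 5.80% and 5.38% of the genes in these 5 regions, in the same order. Within 2 Mb 11 genes had all knockouts lower and 1 had all knockouts higher, whereas on the rest of the chromosome beyond 25 Mb these counts were 4 and 18. The called genes nearest to Trim63 were Paqr7 at 0.167 Mb and Hmgn2 at 0.346 Mb, and the farthest was Fbxo44 at 13.8 Mb. An effect of the missing protein and one of the chromosomal stretch around the allele cannot be told apart for these neighbours. Wild type 4, with Trim63 at 124 CPM, lay above every knockout in each called gene. The calls counted this library as wild type, which favours such genes, so its place in them tests nothing. Some other chromosome 4 genes, given below and picked after their values were seen, lay at knockout levels in this library. The cause was not tested. With genes within 10 Mb of Trim63 left out before adjustment, 0 genes were called by edgeR and 1059 had an unadjusted p below 0.05. Fbxo44, kept in that step, had the same log2 fold change of -3.68, and its adjusted p was 0.201 in place of 0.0293.

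**Figure D2:**
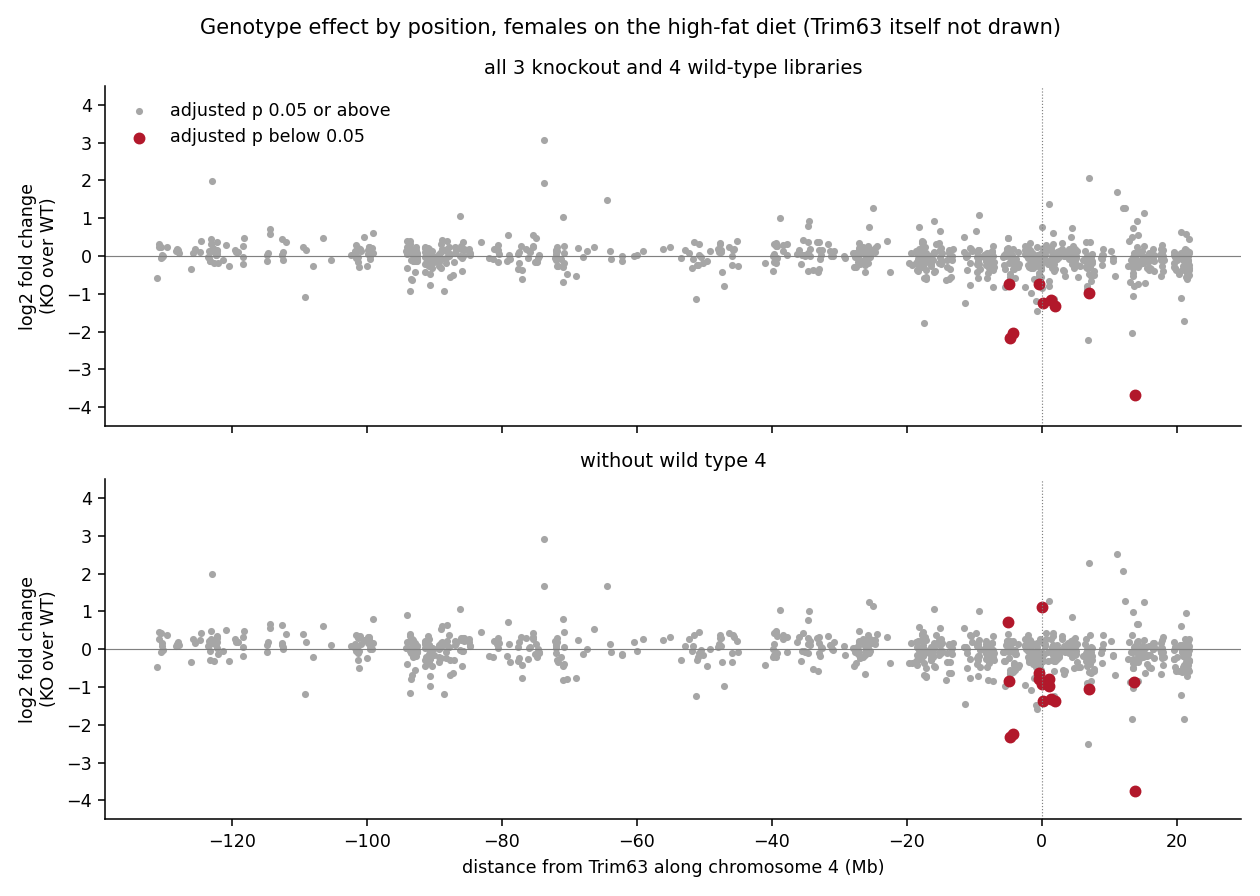
Log2 fold change of knockout over wild type (vertical axis) of each tested chromosome 4 gene against its distance from Trim63 in Mb (horizontal axis), with called genes in red. With all 7 libraries (top) the 9 called genes besides Trim63 lie below 0 and within 13.8 Mb of it, and without wild type 4 (bottom) 2 called genes above 0 appear.

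Leaving out wild type 4 raised the number of calls to 53 of 14032 genes (0.378%), with 25 higher and 28 lower, and the 10 genes above were all among them. Of the 53, 17 lie on chromosome 4 (2 higher and 15 lower) and 36 on other chromosomes. All 53 had the same sign of fold change with wild type 4 kept. Over these genes wild type 4 lay between the knockouts and the other wild types for 27, within the knockout range for 15, beyond it for 7 and within the range of wild types 1 to 3 for 4. It was the library left out that defined these genes, so the counts describe wild type 4 and test nothing.

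Genes of NAD and polyamine metabolism were among those called when wild type 4 was left out. Nmrk2, a muscle-enriched kinase on the route from nicotinamide riboside to NAD, had 153, 149 and 127 CPM in knockouts and 35.8, 52.1, 87.4 and 131 CPM in wild types. Wild type 4 lay within the knockout range and the other 3 below it, so the log2 fold change was 0.91 ± 0.29 (adjusted p = 0.412) with it and 1.29 ± 0.26 (adjusted p = 0.0262) without it. Sms, spermine synthase, had 144, 169 and 156 CPM in knockouts and 104, 106, 91.2 and 159 CPM in wild types, with a log2 fold change of 0.45 ± 0.14 (adjusted p = 0.349) and 0.64 ± 0.12 (adjusted p = 0.00772) without wild type 4. Amd1, the decarboxylase that supplies the aminopropyl groups of spermidine and spermine, had 281, 284 and 303 CPM in knockouts and 189, 198, 155 and 291 CPM in wild types. Its log2 fold change was 0.48 ± 0.16 (adjusted p = 0.455), and 0.68 ± 0.15 (adjusted p = 0.0303) without that library. In both polyamine genes wild types 1 to 3 lay below every knockout while wild type 4 fell within the knockout range.

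The same held for a lipogenic, an autophagy and an adhesion gene. Me1, the cytosolic malic enzyme that yields NADPH for fatty acid synthesis, had 366, 401 and 396 CPM in knockouts and 284, 282, 285 and 402 CPM in wild types (0.31 ± 0.11, adjusted p = 0.524; 0.45 ± 0.10, adjusted p = 0.0439 without wild type 4, log2 fold changes). Atg12, part of the conjugation system that builds autophagosomes, had 33.5, 32.9 and 35.1 CPM in knockouts and 26.4, 26.4, 21.5 and 33.7 CPM in wild types (0.33 ± 0.11, adjusted p = 0.412; 0.45 ± 0.10, adjusted p = 0.0392). Itga7, the laminin-binding integrin of muscle, had 87.5, 78.1 and 79.6 CPM in knockouts and 106, 105, 114 and 72.1 CPM in wild types (-0.28 ± 0.11, adjusted p = 0.526; -0.40 ± 0.09, adjusted p = 0.0303). Wild type 4 was beyond the knockouts for Me1 and Itga7 and among them for Atg12. Pik3c3, the lipid kinase that starts autophagosome formation, had 23.1, 23.8 and 22.7 CPM in knockouts and 18.4, 18.3, 14.0 and 17.6 CPM in wild types. Here all 4 wild types lay below all knockouts, and the log2 fold change was 0.44 ± 0.10 (adjusted p = 0.116) with wild type 4 and 0.45 ± 0.11 (adjusted p = 0.0496) without it.

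**Figure D3:**
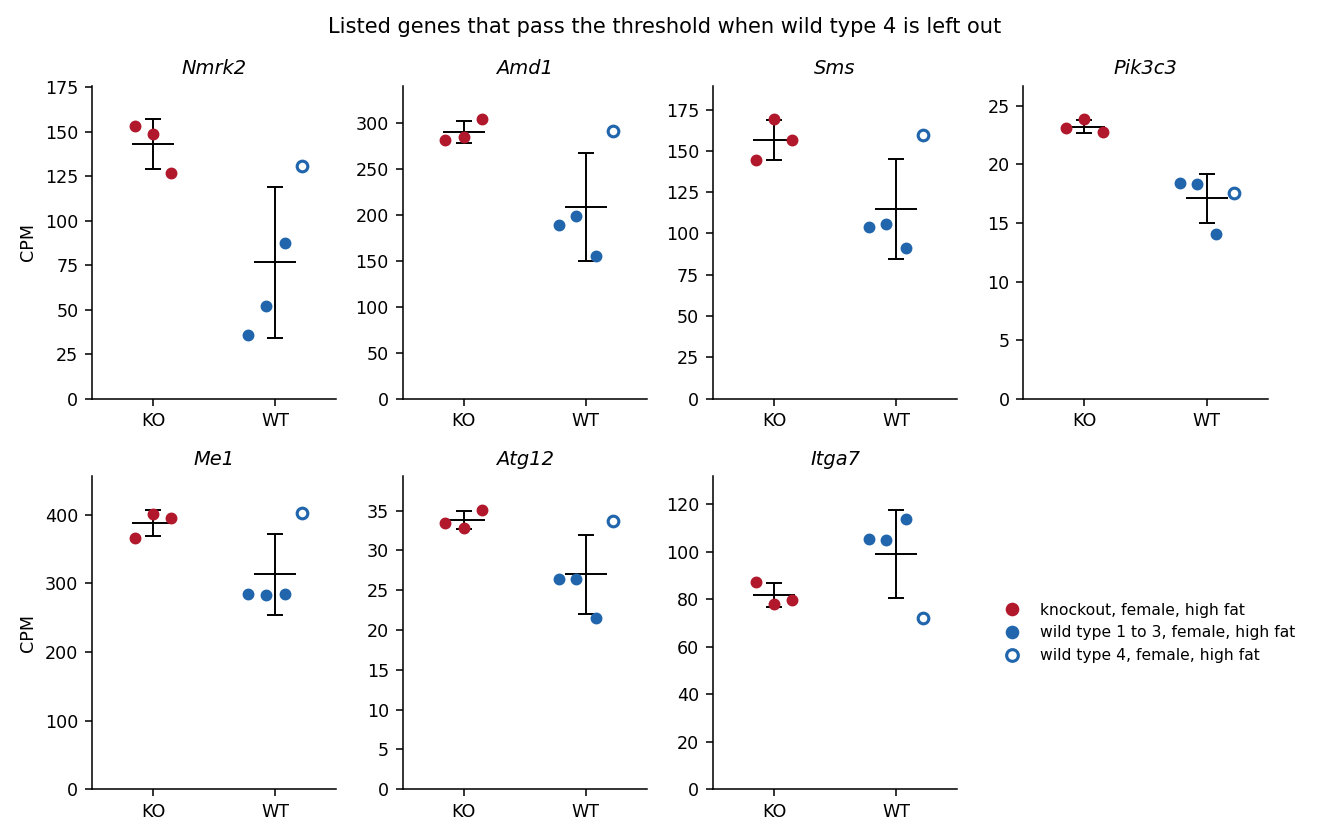
CPM (vertical axis, from 0) of the 7 genes of the fixed lists that pass the threshold when wild type 4 is left out and not with it, in 3 knockout libraries (red) and 4 wild type libraries (blue, wild type 4 open), with group mean and SD. Wild type 4 lies among or beyond the knockouts in the panels of Nmrk2, Amd1, Sms, Me1, Atg12 and Itga7, and with the other wild types for Pik3c3.

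Further genes of chromosome 4 called without wild type 4 were picked out after their values were seen. Slc30a2, a zinc transporter whose gene lies 0.0136 Mb from Trim63, had 5.54, 7.27 and 5.91 CPM in knockouts and 2.88, 3.20, 2.40 and 6.55 CPM in wild types, with a log2 fold change of 1.13 ± 0.23 without wild type 4. Rcan3, a regulator of calcineurin, had 4.60, 3.59 and 3.88 CPM in knockouts and 7.93, 8.22, 7.85 and 3.67 CPM in wild types, with -0.99 ± 0.18. In both, wild type 4 lay among the knockouts. Pafah2, a phospholipase that acts on platelet-activating factor, had 3.24, 3.77 and 3.35 CPM in knockouts and 7.29, 6.65, 5.45 and 5.26 CPM in wild types, with -0.91 ± 0.19 and no overlap of the groups. Nipal3, of a family of magnesium transporters, had 11.9, 11.7 and 11.9 CPM in knockouts and 21.3, 18.6, 21.7 and 13.7 CPM in wild types, with -0.79 ± 0.14 and again no overlap.

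Gene copies off the chromosome also need a limit. BC002163, a clone-named gene of another chromosome, had 57.5, 141 and 107 CPM in knockouts and 3.72, 2.09, 5.08 and 73.2 CPM in wild types. Its transcript is 99.4% identical over 319 bases to Ndufs5 of chromosome 4, which had 58.3, 66.1 and 37.1 CPM in knockouts and 94.8, 82.8, 97.8 and 92.4 CPM in wild types. Gm10036, also of another chromosome, had 16.8, 36.6 and 17.4 CPM in knockouts and 2.38, 2.09, 3.60 and 15.5 CPM in wild types, and is 99.3% identical over 534 bases to Rpl11 of chromosome 4. In both copies wild type 4 lay far above the other wild types of this comparison. Single wild types of other groups were also raised before TMM scaling. BC002163 had 52.0 CPM in male chow wild type 4 (animal 2427) and 45.0 CPM in male high-fat wild type 2 (animal 2453). Gm10036 had 9.58 CPM in male chow wild type 3 (animal 2420) and 13.3 CPM in female chow wild type 1 (animal 2400). Reads of such near-identical copies cannot be placed with certainty, so no level here is taken as that of its own gene.

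Pathway and marker lists were read next, 41 lists with 871 genes, by their counts and medians beside the median of 0.0036 and the share of 0.0713% called over all genes. In 39 of the lists 0 genes were called, and the exceptions were the ubiquitin ligases (Trim63) and the sarcomere list (Myom3 and Hspb7). At an unadjusted p below 0.05, where 3.55% of all genes were higher and 4.31% lower, the counts of each list are given as a description.

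Degradation pathways come first, as those in which MuRF1 acts. Of 30 ubiquitin ligases 1 fell, Trim63 itself, and the median of the list was 0.066. Fbxo32, the partner atrophy ligase atrogin-1, had 471, 621 and 538 CPM in knockouts and 383, 458, 398 and 363 CPM in wild types, a log2 fold change of 0.44 ± 0.17 that did not pass (adjusted p = 0.545). Trim54 and Trim55, the closest relatives of MuRF1, had log2 fold changes of 0.08 ± 0.13 and 0.19 ± 0.10, and neither passed (adjusted p = 0.911 and 0.674). Among 33 proteasome subunits 0 were called, yet 32 had a fold change above 0 and 1 below, with a median of 0.15 and 0.24 without wild type 4. Their summed level was 3927, 5107 and 3977 CPM in knockouts 1 to 3 and 3782, 3671, 3631 and 4406 CPM in wild types 1 to 4, so all knockouts lay above wild types 1 to 3, and wild type 4 lay among the knockouts. In the autophagy and lysosome list 0 of 27 were called and the median was 0.046. In the list of heat shock and chaperone genes 0 of 25 were called, 6 had an unadjusted p below 0.05 in the higher direction and 1 in the lower, and the median was 0.12. The 1 lower gene was Hspb6, a small heat shock protein of muscle, with 924, 755 and 821 CPM in knockouts and 1226, 1070.0, 1217 and 1332 CPM in wild types (-0.54 ± 0.12, adjusted p = 0.119). Dnaja1, a cochaperone of the Hsp70 family, had 51.5, 45.9 and 43.3 CPM in knockouts and 37.9, 37.9, 30.7 and 34.9 CPM in wild types (0.40 ± 0.14, adjusted p = 0.455), and in both genes the groups did not overlap.

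Contractile genes of the slow and fast programmes had medians on opposite sides of 0. For 14 slow-fibre genes the median log2 fold change was -0.39, with 13 below 0 and 1 above, 4 at an unadjusted p below 0.05 and 0 called. Their summed level was 2537, 4347 and 2357 CPM in knockouts and 4392, 4455, 3922 and 3284 CPM in wild types, so knockout 2 lay with the wild types and knockouts 1 and 3 below them. Myh7, the slow myosin heavy chain, had 522, 718 and 487 CPM in knockouts and 1059.9, 1015, 929 and 422 CPM in wild types (-0.57 ± 0.41, adjusted p = 0.761), and wild type 4 was the lowest of all 7. Myh7b, an ancient myosin of slow type, had 5.20, 8.38 and 4.67 CPM in knockouts and 13.0, 13.4, 20.4 and 13.2 CPM in wild types (-1.30 ± 0.34, adjusted p = 0.216), with no overlap of the groups. Casq2, the calsequestrin of slow and cardiac muscle, had 43.9, 41.6 and 34.0 CPM in knockouts and 69.1, 71.0, 47.3 and 50.8 CPM in wild types (-0.58 ± 0.25, adjusted p = 0.592), also with no overlap. For 18 fast-fibre genes the median was 0.18, with 12 above 0 and 0 called. Pvalb, the calcium buffer of fast fibres, had 10918, 17494 and 12709.9 CPM in knockouts and 8431, 8740.0, 11564 and 14473 CPM in wild types (0.34 ± 0.17, adjusted p = 0.646), and wild type 4 lay within the knockout range. Myh3, the embryonic myosin heavy chain, led the developmental list with 4.18, 9.48 and 3.88 CPM in knockouts and 19.2, 29.5, 19.6 and 12.9 CPM in wild types (-1.81 ± 0.46, adjusted p = 0.208). No member of the slow-fibre, fast-fibre and developmental lists passed the threshold, with or without wild type 4.

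Fuel handling, the process a fatty diet loads, gave 0 calls in all of its lists with the 7 libraries. For 24 genes of fatty acid uptake and oxidation the median was -0.18, with 22 below 0 and 2 above, and -0.22 without wild type 4. Their summed level was 4497, 5458 and 4136 CPM in knockouts and 6207, 5787, 4670.3 and 5175 CPM in wild types, so knockout 2 lay among the wild types and knockouts 1 and 3 below them. Cpt1b, the muscle carnitine palmitoyltransferase that admits long-chain fatty acids to mitochondria, had 2.13, 1.75 and 2.29 CPM in knockouts and 3.02, 3.20, 5.17 and 2.48 CPM in wild types (-0.74 ± 0.29, adjusted p = 0.545). Slc27a1, a fatty acid transporter, had 71.8, 81.0 and 68.3 CPM in knockouts and 97.6, 116, 106 and 79.9 CPM in wild types (-0.44 ± 0.21, adjusted p = 0.63), with overlap. Medians lay nearer 0 for 19 genes of fatty acid synthesis (0.067), 30 of insulin and IGF signalling (0.02), 28 of glycolysis and glycogen (-0.0041), 45 nuclear genes of oxidative phosphorylation (-0.023) and 16 fasting-type PPAR targets (0.026). Thrsp, a lipogenic gene also known as Spot 14, had 24.3, 27.0 and 30.5 CPM in knockouts and 14.6, 14.2, 13.0 and 13.1 CPM in wild types. Its groups did not overlap, and the log2 fold change of 0.99 ± 0.37 did not pass (adjusted p = 0.529). Cyc1, cytochrome c1 of complex III, had 385, 408 and 387 CPM in knockouts and 519, 490.0, 522 and 448 CPM in wild types (-0.33 ± 0.11, adjusted p = 0.455).

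Excitation, hormone and stress lists gave 0 calls with all 7 libraries. Among 25 genes of calcium handling and excitation the median was 0.03. Kcnab1, a potassium channel beta subunit, had 5.97, 7.73 and 4.85 CPM in knockouts and 3.02, 3.39, 2.22 and 4.47 CPM in wild types (0.92 ± 0.25, adjusted p = 0.23), and the groups did not overlap. The 25 genes that answer glucocorticoids and FoxO, the regulators of Trim63 itself, had a median of -0.0062. Vegfa, the angiogenic growth factor, stood in the list of amino acid stress genes with 139.7, 161 and 151 CPM in knockouts and 172, 195, 198 and 202 CPM in wild types (-0.35 ± 0.10, adjusted p = 0.329). Dbp, a clock output gene, had 12.2, 13.4 and 13.8 CPM in knockouts and 13.4, 14.8, 22.5 and 75.7 CPM in wild types, so wild type 4 was by far the highest. The median was 0.099 for 39 ribosomal protein genes, with 35 above 0, and 0.25 without wild type 4. Their summed level was 7822, 13105 and 8014 CPM in knockouts and 7720.2, 8045, 8910.4 and 11108 CPM in wild types, so knockout 2 was the highest and knockouts 1 and 3 lay within the wild type range. Other lists without a call had medians of -0.12 for nerve-muscle junction genes, -0.13 for satellite cell genes, -0.15 for developmental muscle genes, 0.058 for antioxidant genes, -0.073 for clock genes, 0.13 for interferon genes, -0.095 for amino acid stress genes, -0.11 for NAD genes, 0.043 for polyamine genes, -0.095 for mitochondrially encoded genes and -0.051 for mitochondrial regulators.

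Among the cell type lists with at least 10 tested genes, the endothelial list was the one with every member below 0. All 18 endothelial markers had a fold change below 0, with a median of -0.35, 9 at an unadjusted p below 0.05, 6 with all knockouts below all wild types and 0 called. Over all tested genes, 3.04% had all knockouts below all wild types, and 4.31% were lower at an unadjusted p below 0.05. Their summed level was 496, 460.3 and 549.8 CPM in knockouts and 659, 632, 693 and 499 CPM in wild types, so wild types 1 to 3 lay above all knockouts and wild type 4 among them. Tie1, an endothelial receptor kinase, had 30.3, 30.3 and 33.6 CPM in knockouts and 42.2, 38.7, 49.2 and 35.0 CPM in wild types (-0.40 ± 0.15, adjusted p = 0.51). Cdh5, the cadherin of endothelial junctions, had 55.6, 36.0 and 64.3 CPM in knockouts and 81.9, 71.7, 87.4 and 53.4 CPM in wild types (-0.50 ± 0.19, adjusted p = 0.524). In whole muscle, fewer cells of a type and less RNA per cell cannot be told apart.

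Connective tissue and immune markers were lowest in wild type 4. The summed level of 12 tendon markers was 232, 206 and 284 CPM in knockouts and 245, 280.1, 328 and 85.0 CPM in wild types, and that of 20 macrophage markers 224, 226 and 213 CPM in knockouts and 215, 221, 218 and 131 CPM in wild types. For 16 fibroblast markers it was 2352, 2507 and 2459.9 CPM in knockouts and 2304, 2489, 2919.9 and 1335 CPM in wild types. Collagen chains, 19 genes with 18 fold changes below 0 and 0 called, summed to 1403, 1040.5 and 1307 CPM in knockouts and 1388, 1729, 1952 and 721 CPM in wild types, with a median of -0.23 and -0.42 without wild type 4. Their part in the fold changes above was not tested. Cpxm2, a matrix gene among the tendon markers, had 11.6, 7.37 and 9.26 CPM in knockouts and 2.03, 2.93, 4.98 and 1.39 CPM in wild types (1.73 ± 0.53, adjusted p = 0.386), with no overlap. Medians of the remaining lists were 0.093 for fibroblast markers, 0.04 for tendon, 0.11 for macrophage, -0.028 for adipocyte, -0.15 for pericyte, 0.12 for Schwann cell, -0.085 for other matrix genes and -1.05 for keratinocyte and hair genes. The adipocyte markers summed to 5258, 5332 and 5390.2 CPM in knockouts and 3917, 4387, 4367 and 4501 CPM in wild types, with all knockouts above all wild types. Most of that sum was Car3, a carbonic anhydrase that muscle fibres also express, with 4714, 4744 and 4856 CPM in knockouts and 3383, 3741, 3743 and 4076 CPM in wild types (0.35 ± 0.12, adjusted p = 0.455). Adipoq, the adipocyte hormone adiponectin, had 18.9, 19.1 and 19.1 CPM in knockouts and 19.4, 26.1, 23.5 and 7.84 CPM in wild types, with overlap. The keratinocyte and hair list is of genes near the floor, among them Sfn with 0.938, 1.20 and 1.32 CPM in knockouts and 3.44, 3.33, 3.60 and 2.18 CPM in wild types, a gene 0.713 Mb from Trim63. Lymphocyte, neutrophil and erythroid lists had 3, 3 and 6 tested genes and are not read.

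**Figure D4:**
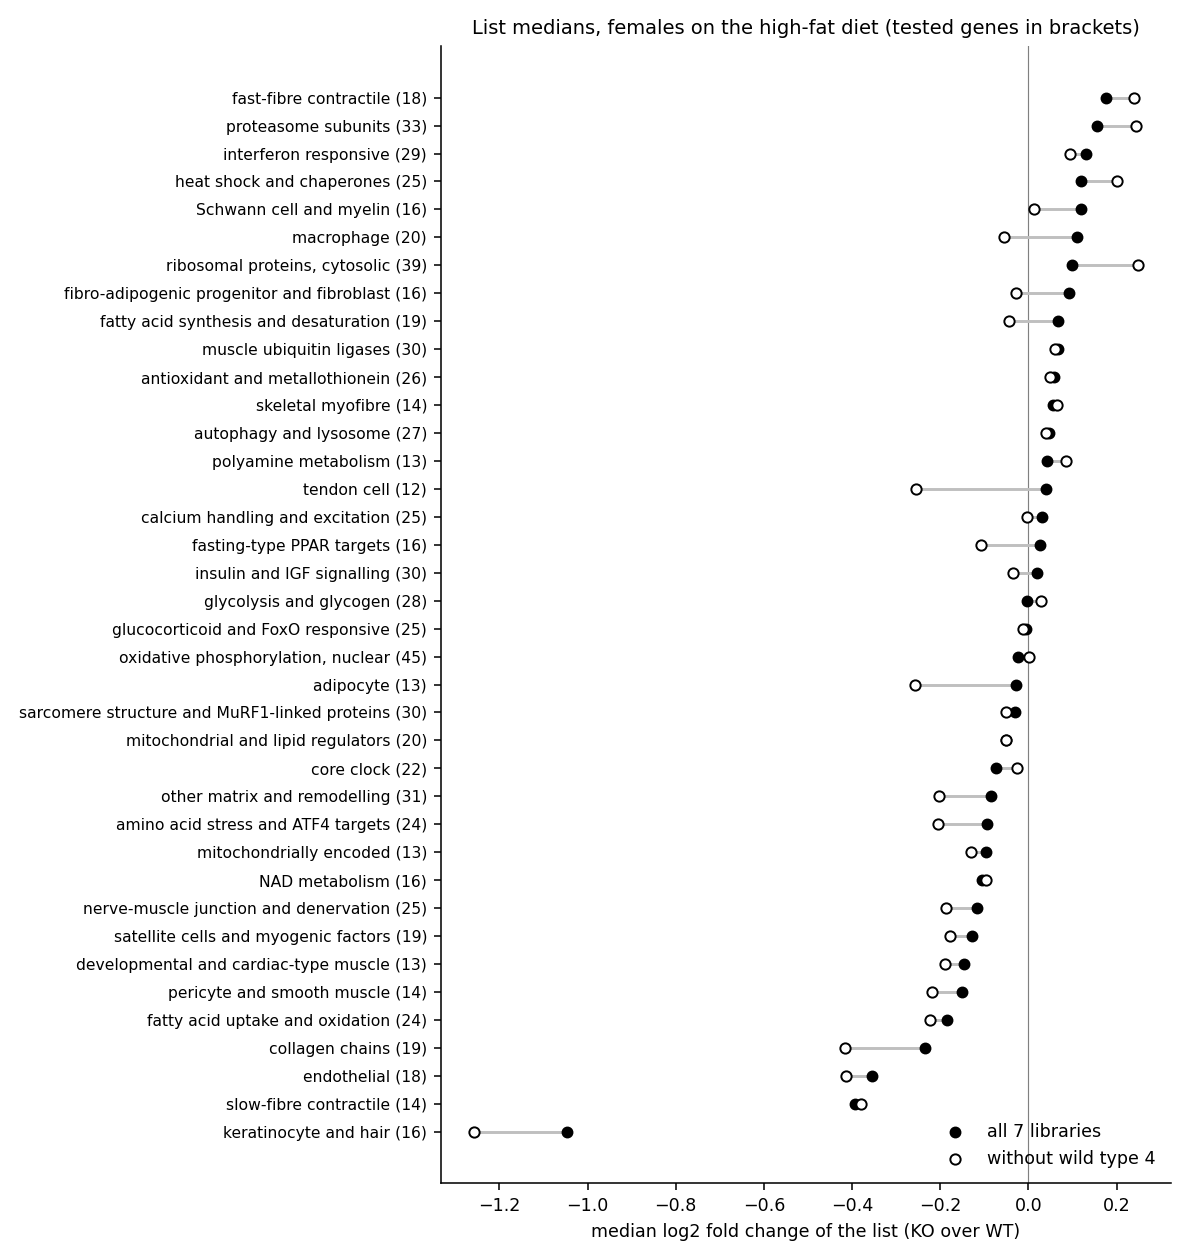
Median log2 fold change of knockout over wild type (horizontal axis) of each list with at least 10 tested genes (vertical axis, number tested in brackets), with all 7 libraries (filled) and without wild type 4 (open). The keratinocyte and hair list, of genes near the floor, lies lowest at -1.05 with all libraries. Slow-fibre, endothelial and collagen lists lie between -0.234 and -0.393, and fast-fibre and proteasome lists at 0.177 and 0.155.

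The difference between diets asks whether the genotype effect on high fat departs from that on chow. It was called for 2 of 14024 genes (0.0143%), and 662 had an unadjusted p below 0.05. Ppp1r3c (ENSMUSG00000067279, chromosome 19, 36731731 to 36736653), a glycogen-targeting subunit of protein phosphatase 1, had 603, 716 and 562 CPM in high-fat knockouts and 486, 597, 435 and 373 CPM in high-fat wild types. Group means were 627 ± 80.0 and 473 ± 94.9 CPM on high fat, knockout then wild type, and 232 ± 13.1 and 445 ± 109 CPM on chow (SD, n = 3 and 4, then 4 and 4). On the log2 scale the genotype effect was 0.41 ± 0.18 on high fat and -0.94 ± 0.17 on chow, a difference of 1.35 ± 0.25 (edgeR, adjusted p = 0.0482). Leo1 (ENSMUSG00000042487, chromosome 9, 75441524 to 75466432), a subunit of the PAF1 transcription elongation complex, had 30.3, 38.6 and 31.1 CPM in high-fat knockouts and 21.7, 26.2, 26.1 and 22.7 CPM in high-fat wild types. Means were 33.3 ± 4.54 and 24.2 ± 2.30 CPM on high fat and 19.6 ± 0.672 and 26.3 ± 1.46 CPM on chow, knockout then wild type. The difference of its genotype effects was 0.88 ± 0.16 (adjusted p = 0.0482). On high fat all knockouts lay above all wild types for Leo1, while for Ppp1r3c wild type 2 lay above knockout 3. Both calls rest on the full set of libraries. Without any 1 library of the 4 groups the count was 0, except for 6 without chow wild type 1 and 1 without high-fat wild type 2. Chow wild type 1, animal 2400, had the lowest Trim63 of the female chow wild types. Before TMM scaling it was 130 CPM, against 196 to 221 CPM in the others. Its Gm10036 level was 13.3 CPM before scaling, against 1.30 to 1.85 CPM in the others. Its BC002163 level was not raised in this way, at 3.36 CPM before scaling against 2.81 to 3.11 CPM in the others. It counts as wild type in all female chow values, and what sets it apart was not tested.

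Hspb7 and Myom3 had near-zero genotype effects in chow-fed females, beside the falls on high fat. Hspb7 averaged 315 ± 45.4 CPM in high-fat knockouts and 622 ± 73.3 CPM in high-fat wild types, against 387 ± 76.4 CPM in chow knockouts and 346 ± 50.9 CPM in chow wild types. The diet difference of -1.15 ± 0.24 did not pass (adjusted p = 0.101). Myom3 averaged 59.6 ± 14.5 CPM in high-fat knockouts and 134 ± 30.6 CPM in high-fat wild types, and 70.2 ± 11.0 CPM in chow knockouts and 76.8 ± 16.5 CPM in chow wild types (difference -1.04 ± 0.31, adjusted p = 0.603). In both genes the high-fat wild type mean was the highest of these 4 groups.

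Males on the same diet gave 0 of 14024 genes (0.0%) whose genotype effect differed from that in females by edgeR, with 752 at an unadjusted p below 0.05 and 2 called by DESeq2. Adgrb2 had log2 fold changes of -2.05 ± 0.35 in high-fat females and 0.33 ± 0.43 in high-fat males, a difference of -2.38 ± 0.56 that did not pass (adjusted p = 0.47). Hspb7 had -0.98 ± 0.18 in high-fat females and -0.92 ± 0.18 in high-fat males, and Myom3 -1.17 ± 0.23 and -0.76 ± 0.23. Each sex and diet has its own animals, and single comparisons called 13 genes in chow females (0.0927%), 37 in high-fat males (0.264%) and 974 in chow males (6.95%).

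Side by side in high-fat females, chow females, high-fat males and chow males, the log2 fold changes of Trim63 were -7.41 ± 0.57, -7.44 ± 0.49, -7.71 ± 0.56 and -6.22 ± 0.45. Those of Fbxo44 were -3.68 ± 0.69, -2.12 ± 0.52, -2.30 ± 0.54 and -1.68 ± 0.49, of Zfp46 -1.31 ± 0.18, -0.68 ± 0.16, -1.11 ± 0.18 and -1.01 ± 0.17, and of Paqr7 -1.25 ± 0.23, -0.996 ± 0.21, -1.68 ± 0.23 and -1.10 ± 0.23. Hmgn2 had -0.74 ± 0.15, -0.97 ± 0.14, -1.22 ± 0.15 and -0.87 ± 0.14, Hdac1 -0.73 ± 0.15, -0.69 ± 0.13, -1.06 ± 0.15 and -1.48 ± 0.15, and Dcdc2b -2.16 ± 0.34, -0.96 ± 0.29, -0.86 ± 0.31 and -1.99 ± 0.32. These 7 genes, and Myom3 given below, were lower in knockouts of all 4 comparisons by sign. Adgrb2, with -2.05 ± 0.35, -1.58 ± 0.30, 0.33 ± 0.43 and 1.39 ± 0.47, had signs that differed between the sexes on both diets, and its male levels were near the floor, at 0.635 ± 0.148 CPM in knockouts and 0.494 ± 0.154 CPM in wild types on high fat. Hspb7 had -0.98 ± 0.18, 0.16 ± 0.16, -0.92 ± 0.18 and -0.02 ± 0.16, and Myom3 -1.17 ± 0.23, -0.13 ± 0.21, -0.76 ± 0.23 and -0.22 ± 0.21, so both high-fat values lay lower than both chow values.

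**Figure D5:**
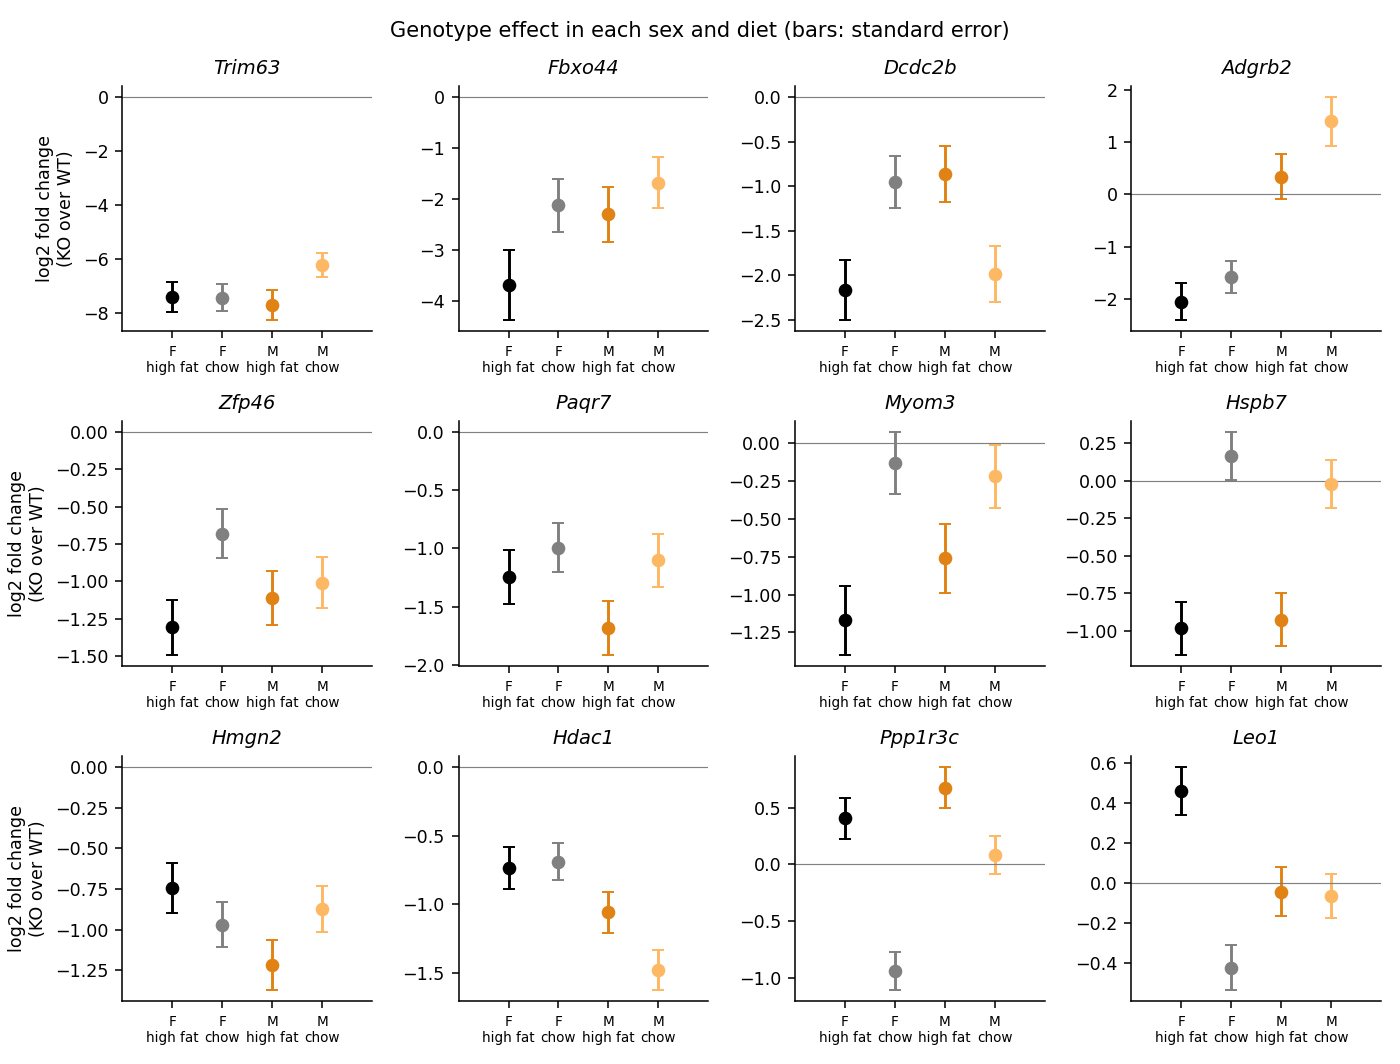
Log2 fold change of knockout over wild type (vertical axis, bars standard error) of the 10 called genes, Ppp1r3c and Leo1, in females (F) and males (M) on high fat and chow. Trim63 lies below -6 in all 4 comparisons, and Hspb7 and Myom3 lie lower on high fat than on chow in both sexes.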

How the data were processed

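For each library the authors deposited a table of unnormalised read counts over 39017 Ensembl identifiers. Per the labels' protocols, polyA RNA with an integrity number above 8 was made into stranded libraries and sequenced as 150 bp paired ends. The submitters' processing notes name bcl2fastq, featureCounts and mm10. The aligner, annotation release and strand setting were each not given in the sources used here. Overlapping antisense genes therefore cannot be separated. Symbols matched 37607 identifiers and mm10 coordinates (GENCODE M21) 37693. Identifiers without a symbol held 0.113% of counts.

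Libraries were grouped by the animal number of their count table. It gave 30 libraries 8 groups, and 1 (number 2509) matched no title. For 4 libraries the own title gives another group. Counts were tested with edgeR 4.0.16 in R 4.3.3 (TMM, filterByExpr with a minimum of 10, robust quasi-likelihood, Benjamini-Hochberg adjustment at 0.05), all 8 groups sharing 1 spread. The common dispersion of 0.0202 corresponds to 14.2% variation between animals, and counts cover counting error only. The steps were tested on simulated data. Standard errors come from the fold change and F statistic. DESeq2 1.42.0 was an alternative, beside other scaling, filters, groupings, a replicate block and libraries left out.

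Named genes are Trim63, the 12 largest called changes each way (mean log2 CPM 0 or more), 5 called genes within 10 Mb, up to 3 genes of smallest p per list and 5 calls per interaction. Not all are printed, and clone names were passed over. Myh7, Trim54, Trim55, Adipoq, BC002163, Gm10036 and Ndufs5 fall outside this rule and were chosen after their values were seen. The comparison, the gene lists and the rules were chosen with earlier results of these data known.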

Additional observations from a re-analysis of the deposited data

Results flagged for a closer look

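In the wild type high-fat group, 18 genes and 12 marker sums were checked for a library far from the others. Chance flags about 1 in 20 of the items checked, so flags among this many items can arise by chance. Myh7b, a myosin of slow type, was set apart by wild type 3. The gap of this library to the next was 0.947 of the whole range, with 13.0, 13.4, 20.4 and 13.2 CPM in wild types 1 to 4, beside 5.20, 8.38 and 4.67 CPM in knockouts. The summed level of 20 macrophage markers was set apart by wild type 4, with a gap of 0.936 of the range. The sums were 224, 226 and 213 CPM in knockouts 1 to 3 and 215, 221, 218 and 131 CPM in wild types 1 to 4.

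A pair of genes had a genotype effect in females that differed between the diets by the test of the difference itself. Ppp1r3c, a glycogen-targeting phosphatase subunit, had a log2 genotype effect of 0.41 ± 0.18 on high fat and -0.94 ± 0.17 on chow, a difference of 1.35 (edgeR adjusted p = 0.0482). Leo1, of the PAF1 elongation complex, had 0.46 ± 0.12 on high fat and -0.42 ± 0.11 on chow, a difference of 0.882 (edgeR adjusted p = 0.0482). Leaving out any 1 library of the 4 groups left 0 such calls, except for 6 without chow wild type 1 and 1 without high-fat wild type 2.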

How the results depend on the processing

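The count of 10 genes called for the genotype effect in high-fat females became 6 without the count filter, 0 by edgeR with libraries grouped by their own titles (1839 at an unadjusted p below 0.05), 22 with the replicate block (3 higher and 19 lower), 2 with only the groups compared in the fit, 0 without genes within 10 Mb of Trim63 (1059 at an unadjusted p below 0.05), 31 with DESeq2 (9 higher and 22 lower) and 41 without 3 libraries whose Trim63 lay at 50 to 150 CPM, an alternative chosen after seeing the data. Leaving out 1 library at a time gave 2 to 53, with 6, 7, 4 and 53 without wild types 1 to 4 and 5, 6 and 2 without knockouts 1 to 3. The 2 calls for the diet difference became 0 without the filter, without robust dispersion, with own titles and without the 3 female chow libraries with Krt10 above 10 CPM, 1 without the libraries of intermediate Trim63, 5 with the replicate block, 10 with only the groups compared and 13 with DESeq2, and 0 to 6 without 1 library. The 0 calls for the sex difference became 2 with only the groups compared, with DESeq2 and without the libraries of intermediate Trim63, and lay at 0 to 1 without 1 library. The causes were not tested, and no fold change of the called genes reversed. Calls kept in the alternatives numbered 15 of 16 for Trim63, 14 of 16 for Zfp46 and 6 of 16 for Hdac1. Replicate numbers do not pair the libraries: same-numbered pairs had correlations of deviations of 0.318, -0.376 and -0.0873. Transcripts near the floor of 3 counts, such as Fbxo44 in knockouts, are limited by depth.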
